A study of Arabidopsis thaliana with 8 samples.

Results

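Class III peroxidases are secreted haem enzymes of plants, and 60 listed genes of this family were followed in Arabidopsis roots given aluminium (Al). The 60 genes were a fixed list of locus identifiers out of 24279 genes in the deposited tables. The rule names loci and no measured value, but the list was drawn up with earlier results of these data known. The list holds members of the family series numbered PRX1 to PRX73, and the other 13 loci of the family are treated only as a comparison. Roots were taken from seedlings pre-grown for 6 d in nutrient solution at pH 5.0. The groups were the mutant line cml24-2 given 10 µM AlCl3 for 6 h, cml24-2 kept at 0 µM AlCl3, the wild type Col given 10 µM AlCl3 for 6 h, and Col kept at 0 µM AlCl3, with 2 RNA-seq libraries in each. CML24 encodes a calmodulin-like calcium-binding protein, and which kind of allele cml24-2 carries is not stated. About 500 seedlings were used in the treatment, and no label says how many went into a library or that replicate libraries came from separate cultures. The p-values therefore measure only the spread between these samples, which may be technical. The series title names CML24-mediated Al resistance as the question, and the comparisons below set Al against no Al for each genotype, and the mutant against wild type in each condition, and test how far the genotypes differ in the Al response.

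The enzymes act in the cell wall, where they use hydrogen peroxide to oxidise monolignols, extensins and other phenolic substrates, which cross-links and stiffens the wall. In another reaction cycle they can form reactive oxygen species, and some members supply the apoplastic oxidative burst that follows elicitors of defence. In roots, members are known from the growth of root hairs, from the lignin of the Casparian strip in the endodermis, from xylem lignin, and from the switch between cell division and elongation. Hydrogen peroxide reaches them mainly through respiratory burst NADPH oxidases and superoxide dismutases. Callose and lignin deposits in roots are widely used as signs of Al stress.

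The libraries held 11743400 to 12188900 expected counts, which are the authors' estimates of reads per gene. The 2 wild-type libraries without Al were further apart than the other pairs, with a standard deviation of the log2 difference between replicates of 0.375, against 0.228 to 0.265 in the other groups. CML24, the gene altered in the mutant, was listed at 146 and 106 FPKM in cml24-2 with Al and 207 and 129 FPKM in cml24-2 without Al. In wild type, CML24 had 48.5 and 43.0 FPKM with Al and 49.5 and 114 FPKM without Al. It was not lower in the cml24-2 libraries. By edgeR's quasi-likelihood test it was called higher there with Al, with a log2 difference of 1.45 (SE 0.37, adjusted p = 0.045). Without Al the difference of 1.08 (SE 0.36, adjusted p = 0.079) did not pass. These levels therefore do not check the genotype labels. ALMT1, a malate channel gene used here as a sign that Al acted, was listed at 27.5 and 24.6 FPKM in cml24-2 with Al and 2.93 and 1.60 FPKM in cml24-2 without Al. In wild type, ALMT1 had 27.1 and 23.5 FPKM with Al and 0.42 and 0.54 FPKM without Al. It rose with Al by log2 values of 3.50 in cml24-2 and 5.74 in wild type. Without Al, ALMT1 was already higher in cml24-2 than in wild type, by 2.27 (SE 0.35, adjusted p = 0.0053, edgeR's quasi-likelihood test). The genotypes did not pass the same test for a different ALMT1 response to Al (-2.24, SE 0.40, adjusted p = 0.061). Markers of root hairs and of the endodermis were present in every group, as in a root sample. The FPKM of 12 photosynthesis markers, which stand for shoot tissue, summed to 109 and 133 in cml24-2 with Al, 161 and 237 in cml24-2 without Al, 59.9 and 25.6 in wild type with Al and 72.5 and 142 in wild type without Al, and none of the 12 was at 0 in any library. By the edgeR test described below, 4 of the 12 were lower with Al in cml24-2, where 23.3% of all tested genes were lower. In wild type, 5 were lower with Al, against 25.9% of all genes. All 12 log2 fold changes were below 0 in each genotype. The part of shoot tissue in the results below was not tested.

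The response of the peroxidases to Al ran in opposite directions within the family, and the falling members outnumbered the rising ones. In cml24-2 with Al against no Al, 15 of the 54 tested members were higher, where 21.3% of all 20262 tested genes were higher, and 26 were lower, where 23.3% of all genes were lower. In wild type, 17 members were higher, against 25.1% of all genes, and 27 were lower, against 25.9% of all genes. As shares of the tested members these are 27.8% higher and 48.1% lower in cml24-2, and 31.5% higher and 50.0% lower in wild type. The share of members that rose was near the background, and the share that fell was above it in each genotype. A gene was called here and below when edgeR's quasi-likelihood test on the counts gave an adjusted p under 0.05 (Benjamini-Hochberg, over all 20262 genes). Fold changes are log2 values with standard errors (SE).

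Counted by size, changes of at least 2-fold took a larger share of the tested members than of all genes. In cml24-2, 11 members were higher and 17 were lower by at least 2-fold, which is 20.4 and 31.5% of the tested members, against 6.09 and 9.00% of all genes. In wild type, 15 members were higher and 18 were lower by at least 2-fold, which is 27.8 and 33.3% of the tested members, against 8.47 and 11.6% of all genes. The median log2 fold change of the 54 members was -0.26 in cml24-2 and -0.30 in wild type, beside -0.01 and 0.00 over all genes. These are counts with no test of the list. Members of low level such as PRX58, PRX33, PRX8 and PRX60 passed the filter only through the groups in which they were high. The Al comparisons of the genotypes share no library. The remaining 6 members, PRX1 (AT1G05240), PRX6 (AT1G24110), PRX36 (AT3G50990), PRX41 (AT4G17690), PRX65 (AT5G47000) and PRX67 (AT5G58390), did not pass the filter on low counts, and none exceeded 0.27 FPKM in any library.

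**Figure D1:**
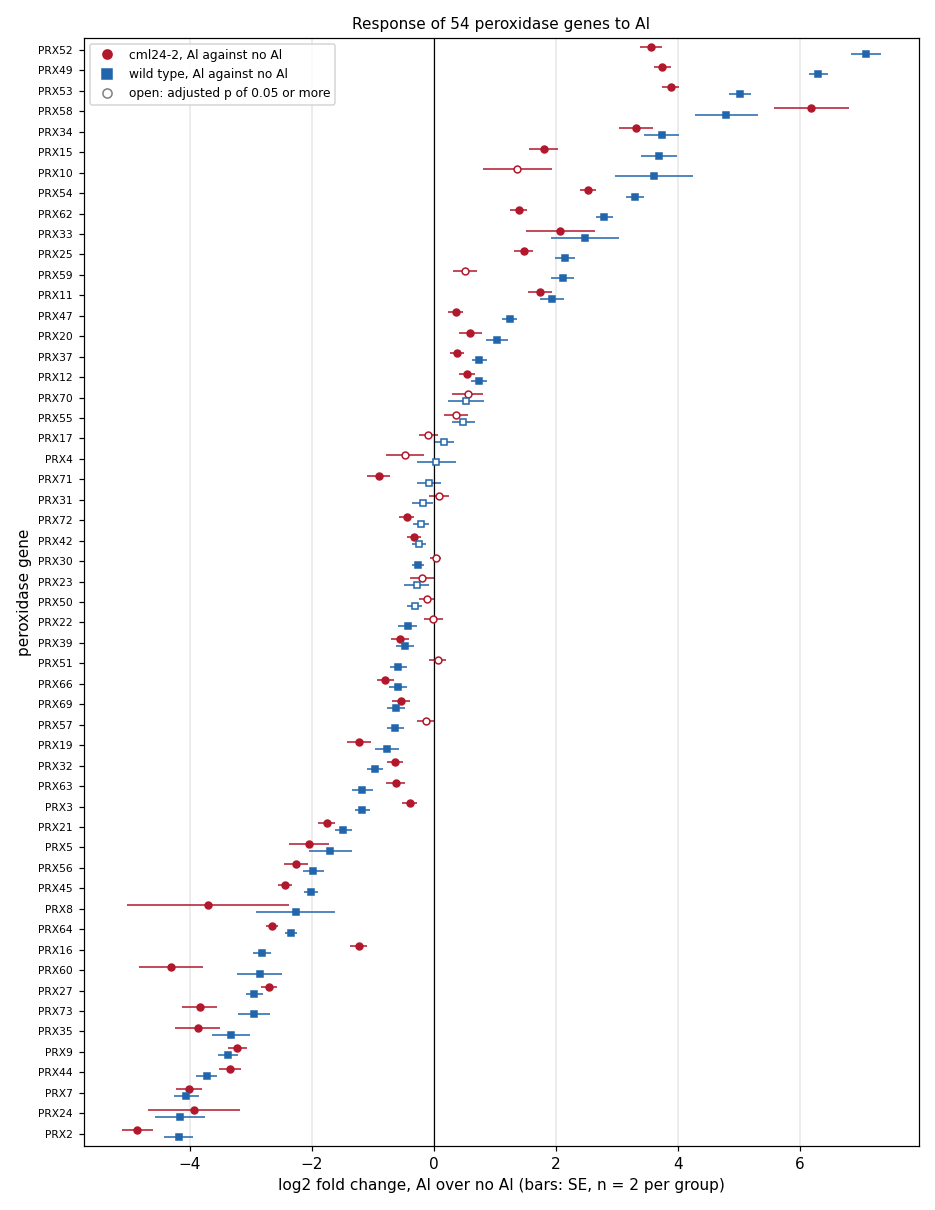
Log2 fold changes with Al over no Al for the 54 tested peroxidase genes, ordered by the value in wild type; circles are cml24-2, squares are wild type, bars are SE (n = 2 libraries per group) and open symbols did not pass an adjusted p of 0.05. The values run from -4.86 to 6.19 in cml24-2 and from -4.18 to 7.08 in wild type, and the 11 members at the top of the plot lie further right in wild type except PRX58.

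As a pool, peroxidase transcripts were less abundant with Al, and a few members held most of it. The FPKM of the 60 genes summed to 5043 and 5223 in cml24-2 with Al, 5618 and 6499.5 in cml24-2 without Al, 4656 and 4708 in wild type with Al and 6738 and 6939 in wild type without Al. FPKM are the authors' unit, scaled to gene length and to the reads of the library. The pool was 0.808 ± 0.023% of all FPKM in cml24-2 with Al, 0.932 ± 0.098% in cml24-2 without Al, 0.726 ± 0.013% in wild type with Al and 1.05 ± 0.025% in wild type without Al (SD, n = 2 each). The Al and no-Al libraries did not overlap in either genotype. The 5 most abundant members in each library held 53.1 to 56.6% of the pool.

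PRX42 (AT4G21960, PRXR1) had the highest mean level, 1031 FPKM over the 8 libraries, and was listed at 932 and 933 FPKM in cml24-2 with Al and 1069 and 1234 FPKM in cml24-2 without Al. In wild type, PRX42 had 953 and 894 FPKM with Al and 1172 and 1059 FPKM without Al. Its levels with Al were below those without Al in either genotype, with log2 fold changes of -0.33 (SE 0.11, adjusted p = 0.037) in cml24-2 and -0.24 (SE 0.11, adjusted p = 0.097) in wild type, so that it was called in cml24-2 and not in wild type; the call in cml24-2 ended with RLE size factors, with limma and without cml24-2 no Al replicate 2 or either cml24-2 Al library (adjusted p from 0.022 to 0.22 over its alternatives). PRX32 (AT3G32980) came next with a mean of 850 FPKM, and was listed at 613 and 668 FPKM in cml24-2 with Al and 889.8 and 1074 FPKM in cml24-2 without Al. In wild type, PRX32 had 569 and 618 FPKM with Al and 1129.6 and 1236 FPKM without Al. PRX32 fell in each genotype, with log2 fold changes of -0.64 (SE 0.13, adjusted p = 0.0034) in cml24-2 and -0.96 (SE 0.13, adjusted p = 0.00027) in wild type. PRX69 (AT5G64100), a member known from root hair growth in the cold, averaged 337 FPKM and was listed at 257 and 323 FPKM in cml24-2 with Al and 381 and 444 FPKM in cml24-2 without Al. In wild type, PRX69 had 231 and 271 FPKM with Al and 427 and 362 FPKM without Al. The PRX69 values were lower with Al in each genotype, with log2 fold changes of -0.53 (SE 0.15, adjusted p = 0.016) in cml24-2 and -0.62 (SE 0.15, adjusted p = 0.0068) in wild type; these calls ended without cml24-2 no Al replicate 2 or cml24-2 Al replicate 1 (adjusted p from 0.0031 to 0.13) and without wild-type Al replicate 1 (adjusted p from 0.00026 to 0.066).

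**Figure D2:**
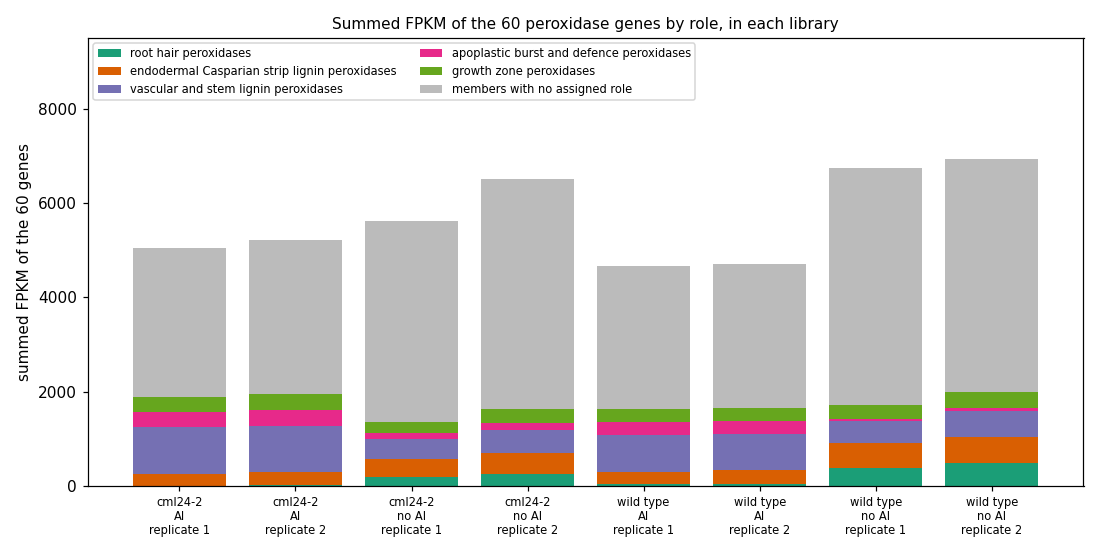
Summed FPKM of the 60 peroxidase genes in each library, stacked by the role assigned to each member, with members of no assigned role in grey. The totals lie between 5043 and 5223 in cml24-2 with Al, against 5618 and 6499.5 without, and the band of the root hair members is thinner with Al in each genotype.

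The members with roles in vascular and stem lignin held the 2 largest rises in wild type, those of PRX52 and PRX49. Of the 8 tested, 4 were higher and 3 lower with Al in cml24-2, and 4 were higher and 2 lower in wild type. The shares over all tested genes were 21.3% higher and 23.3% lower in cml24-2, and 25.1% higher and 25.9% lower in wild type. PRX52 (AT5G05340), which is needed for normal syringyl lignin in stem fibres, was listed at 75.4 and 73.0 FPKM in cml24-2 with Al and 6.62 and 5.74 FPKM in cml24-2 without Al. In wild type, PRX52 had 91.8 and 78.2 FPKM with Al and 0.95 and 0.32 FPKM without Al. It was under 1 FPKM in wild type without Al, already present in cml24-2 without Al, and high in all 4 libraries with Al, with no overlap between Al and no Al. The log2 fold changes were 3.56 (SE 0.18, adjusted p = 1.6e-06) in cml24-2 and 7.08 (SE 0.24, adjusted p = 2.8e-07) in wild type. PRX49 (AT4G36430), also placed among the lignin members, was listed at 641 and 639 FPKM in cml24-2 with Al and 41.0 and 53.0 FPKM in cml24-2 without Al. In wild type, PRX49 had 495 and 490.3 FPKM with Al and 6.16 and 6.56 FPKM without Al. With Al it became 1 of the 5 most abundant members, in each genotype without overlap, and its log2 fold changes were 3.74 (SE 0.14, adjusted p = 4.2e-07) in cml24-2 and 6.30 (SE 0.16, adjusted p = 1.4e-07) in wild type.

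PRX25 (AT2G41480), a stem lignin peroxidase, was listed at 78.2 and 74.5 FPKM in cml24-2 with Al and 25.1 and 29.1 FPKM in cml24-2 without Al. In wild type, PRX25 had 44.9 and 48.1 FPKM with Al and 8.84 and 12.5 FPKM without Al. Its levels with Al stood above those without Al in each genotype, and the log2 fold changes were 1.47 (SE 0.15, adjusted p = 8.7e-05) in cml24-2 and 2.15 (SE 0.16, adjusted p = 1.1e-05) in wild type. PRX47 (AT4G33420), expressed in differentiating vessels, was listed at 119.8 and 117 FPKM in cml24-2 with Al and 100.2 and 81.9 FPKM in cml24-2 without Al. In wild type, PRX47 had 79.6 and 74.4 FPKM with Al and 31.0 and 35.3 FPKM without Al. Both genotypes stood higher with Al, and the distance was smaller in cml24-2, with log2 fold changes of 0.36 (SE 0.12, adjusted p = 0.036) in cml24-2 and 1.25 (SE 0.12, adjusted p = 4.7e-05) in wild type. The call of PRX47 in cml24-2 ended without either Al library of either genotype or without cml24-2 no Al replicate 2 (adjusted p from 0.010 to 0.23).

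Other lignin members moved the other way. PRX2 (AT1G05250), a stem lignin peroxidase whose coding sequence equals that of PRX1 (AT1G05240), was listed at 5.20 and 6.54 FPKM in cml24-2 with Al and 142 and 196 FPKM in cml24-2 without Al. In wild type, PRX2 had 16.6 and 23.6 FPKM with Al and 336 and 412 FPKM without Al. All 4 Al libraries were low and did not overlap with the others, and the log2 fold changes, -4.86 (SE 0.25, adjusted p = 2.1e-06) in cml24-2 and -4.18 (SE 0.24, adjusted p = 2.1e-06) in wild type, were the lowest of all tested members in each genotype. PRX66 (AT5G51890), named for vessel lignin with PRX47 and PRX64 (AT5G42180), was listed at 34.4 and 26.8 FPKM in cml24-2 with Al and 47.0 and 57.3 FPKM in cml24-2 without Al. In wild type, PRX66 had 31.3 and 29.4 FPKM with Al and 44.4 and 49.1 FPKM without Al. The Al libraries were lower in each genotype, with log2 fold changes of -0.79 (SE 0.15, adjusted p = 0.0021) in cml24-2 and -0.59 (SE 0.15, adjusted p = 0.0081) in wild type, and the call in wild type ended without wild-type Al replicate 2 (adjusted p from 0.0048 to 0.059). PRX71 (AT5G64120), which restricts cell expansion and strengthens walls, was listed at 29.9 and 37.7 FPKM in cml24-2 with Al and 54.7 and 70.0 FPKM in cml24-2 without Al. In wild type, PRX71 had 24.9 and 18.5 FPKM with Al and 20.4 and 26.3 FPKM without Al. It fell in cml24-2, while the Al and no-Al libraries of wild type overlapped, with log2 fold changes of -0.91 (SE 0.19, adjusted p = 0.0045) in cml24-2 and -0.08 (SE 0.20, adjusted p = 0.77) in wild type. PRX17 was called in neither genotype. The FPKM of the 8 members summed to 991 and 981 in cml24-2 with Al, 424 and 500.2 in cml24-2 without Al, 794 and 769.7 in wild type with Al and 456 and 549 in wild type without Al. With Al, most of the sum was PRX49, with a mean of 640 FPKM in cml24-2 and 493 FPKM in wild type. In wild type without Al, most was PRX2, with a mean of 374 FPKM, beside 169 FPKM in cml24-2 without Al. The sums therefore do not show a rise of the members as a group.

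**Figure D3:**
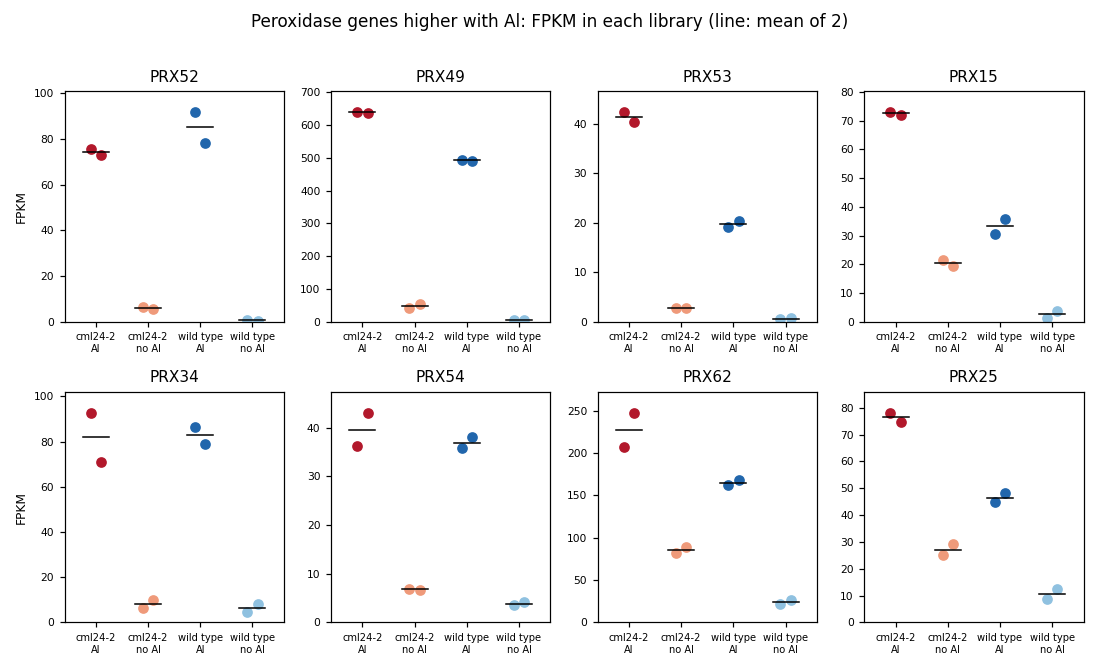
FPKM in each library for 8 peroxidase genes that were higher with Al, in 4 groups of 2 libraries; lines are group means and each vertical axis starts at 0. In every panel both Al groups stand above their no-Al groups, and PRX52, PRX49, PRX53, PRX15, PRX62, PRX54 and PRX25 also stand higher in cml24-2 without Al than in wild type without Al.

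Among the 5 members of the apoplastic burst and of defence, 3 were higher and 1 lower with Al in each genotype. Of all tested genes, 21.3% were higher and 23.3% lower in cml24-2, and 25.1% higher and 25.9% lower in wild type. Of the 3 higher, PRX33 passed the low-count filter only through its libraries with Al. PRX34 (AT3G49120, PRXCB), which with PRX33 makes much of the elicitor-triggered hydrogen peroxide in leaves, was listed at 92.9 and 71.2 FPKM in cml24-2 with Al and 6.27 and 9.88 FPKM in cml24-2 without Al. In wild type, PRX34 had 86.7 and 79.2 FPKM with Al and 4.42 and 8.32 FPKM without Al. The Al libraries lay far above the others and those of the genotypes overlapped with each other, with log2 fold changes of 3.32 (SE 0.28, adjusted p = 3.2e-05) in cml24-2 and 3.73 (SE 0.29, adjusted p = 1.2e-05) in wild type. PRX33 (AT3G49110, PRXCA) was listed at 1.30 and 1.04 FPKM in cml24-2 with Al and 0.29 and 0.28 FPKM in cml24-2 without Al. In wild type, PRX33 had 1.25 and 1.44 FPKM with Al and 0.06 and 0.40 FPKM without Al. Its libraries with Al were higher at far lower levels than those of PRX34, with log2 fold changes of 2.08 (SE 0.56, adjusted p = 0.015) in cml24-2 and 2.48 (SE 0.56, adjusted p = 0.0052) in wild type. PRX33 and PRX34 share 90.4% of their coding bases and had fractional counts in all 8 libraries, so the split of reads between them is uncertain; summed, their log2 fold change was 3.29 in cml24-2 and 3.70 in wild type. The PRX33 call in cml24-2 ended without either cml24-2 no Al library or without cml24-2 Al replicate 1 (adjusted p from 3.7e-05 to 0.084).

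PRX62 (AT5G39580), also known from root hair growth in the cold, was listed at 207 and 248 FPKM in cml24-2 with Al and 81.6 and 88.7 FPKM in cml24-2 without Al. In wild type, PRX62 had 162 and 168 FPKM with Al and 21.7 and 26.9 FPKM without Al. Its groups did not overlap, and cml24-2 without Al stood between the wild-type groups, with log2 fold changes of 1.39 (SE 0.14, adjusted p = 6.6e-05) in cml24-2 and 2.80 (SE 0.15, adjusted p = 1.5e-06) in wild type. PRX5 (AT1G14550), a neighbour of PRX4 on the opposite strand, was listed at 5.70 and 3.13 FPKM in cml24-2 with Al and 16.8 and 19.1 FPKM in cml24-2 without Al. In wild type, PRX5 had 2.56 and 3.88 FPKM with Al and 7.75 and 13.5 FPKM without Al. It fell in each genotype, with log2 fold changes of -2.05 (SE 0.33, adjusted p = 0.0010) in cml24-2 and -1.70 (SE 0.36, adjusted p = 0.0036) in wild type. PRX4 (AT1G14540) was listed at 17.6 and 12.2 FPKM in cml24-2 with Al and 22.5 and 18.2 FPKM in cml24-2 without Al. In wild type, PRX4 had 12.4 and 15.8 FPKM with Al and 9.19 and 18.8 FPKM without Al. The PRX4 values of Al and no-Al libraries overlapped in wild type, and its log2 fold changes did not pass, -0.47 (SE 0.31, adjusted p = 0.25) in cml24-2 and 0.04 (SE 0.32, adjusted p = 0.93) in wild type. The FPKM of the 5 genes summed to 324 and 335 in cml24-2 with Al, 127 and 136 in cml24-2 without Al, 265 and 268 in wild type with Al and 43.1 and 67.9 in wild type without Al.

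Of the 3 members tied to growth zones, PRX53 and PRX37 were higher with Al in each genotype. PRX53 (AT5G06720, PA2), a peroxidase of vascular tissue and of cell elongation, was listed at 42.4 and 40.4 FPKM in cml24-2 with Al and 2.72 and 2.79 FPKM in cml24-2 without Al. In wild type, PRX53 had 19.1 and 20.4 FPKM with Al and 0.49 and 0.74 FPKM without Al. It was under 1 FPKM in wild type without Al and highest in cml24-2 with Al, with no overlap among the groups, and the log2 fold changes were 3.88 (SE 0.14, adjusted p = 4.1e-07) in cml24-2 and 5.02 (SE 0.18, adjusted p = 3.3e-07) in wild type. PRX37 (AT4G08770), whose overexpression restricts growth, had log2 fold changes of 0.38 (SE 0.12, adjusted p = 0.028) in cml24-2 and 0.75 (SE 0.12, adjusted p = 0.00082) in wild type, and the call in cml24-2 ended without cml24-2 no Al replicate 1 or either cml24-2 Al library (adjusted p from 0.0069 to 0.18). PRX57 (AT5G17820), a target that the transcription factor UPB1 represses at the border of the meristem, was listed at 168 and 179.8 FPKM in cml24-2 with Al and 159 and 216 FPKM in cml24-2 without Al. In wild type, PRX57 had 167 and 163 FPKM with Al and 244 and 277 FPKM without Al. Its Al and no-Al libraries overlapped in cml24-2 and not in wild type, and its log2 fold changes were -0.13 (SE 0.15, adjusted p = 0.49) in cml24-2 and -0.63 (SE 0.15, adjusted p = 0.0060) in wild type. UPB1 itself was higher with Al in each genotype, with log2 fold changes of 1.51 (SE 0.21, adjusted p = 0.00045) in cml24-2 and 1.80 (SE 0.21, adjusted p = 0.00011) in wild type.

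Several rising members have no role assigned here. PRX15 (AT2G18150) was listed at 73.1 and 72.2 FPKM in cml24-2 with Al and 21.6 and 19.5 FPKM in cml24-2 without Al. In wild type, PRX15 had 30.5 and 35.9 FPKM with Al and 1.41 and 3.81 FPKM without Al. Its 4 groups did not overlap, and its log2 fold changes were 1.80 (SE 0.24, adjusted p = 0.00033) in cml24-2 and 3.69 (SE 0.30, adjusted p = 1.5e-05) in wild type. PRX54 (AT5G06730), the tandem neighbour of PRX53, was listed at 36.2 and 43.1 FPKM in cml24-2 with Al and 6.80 and 6.76 FPKM in cml24-2 without Al. In wild type, PRX54 had 35.8 and 38.0 FPKM with Al and 3.52 and 4.12 FPKM without Al. Al and no-Al libraries were apart, those of the genotypes overlapped with Al, and the log2 fold changes were 2.52 (SE 0.13, adjusted p = 2.2e-06) in cml24-2 and 3.30 (SE 0.14, adjusted p = 6.6e-07) in wild type. PRX11 (AT1G68850) was listed at 116 and 106 FPKM in cml24-2 with Al and 30.2 and 35.0 FPKM in cml24-2 without Al. In wild type, PRX11 had 145 and 162 FPKM with Al and 32.3 and 49.7 FPKM without Al. The values with Al were higher in each genotype, with log2 fold changes of 1.74 (SE 0.20, adjusted p = 0.00014) in cml24-2 and 1.93 (SE 0.19, adjusted p = 5.2e-05) in wild type.

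At low levels, PRX58 (AT5G19880) was listed at 3.44 and 2.70 FPKM in cml24-2 with Al and 0 and 0.07 FPKM in cml24-2 without Al. In wild type, PRX58 had 2.55 and 3.29 FPKM with Al and 0.07 and 0.13 FPKM without Al. Its counts summed to 91 in cml24-2 with Al and 1 without, a ratio of 90.9 with a 95% counting interval of 15.9 to 3628, and to 86 in wild type with Al and 3 without, a ratio of 30.0 with an interval of 9.93 to 148; the interval covers counting error only. PRX59 lies beside it and was listed at 4.47 and 5.16 FPKM in cml24-2 with Al and 3.32 and 3.33 FPKM in cml24-2 without Al. In wild type, PRX59 (AT5G19890) had 12.4 and 12.9 FPKM with Al and 3.60 and 2.41 FPKM without Al. The PRX59 libraries with Al stood out in wild type, and the log2 fold changes were 0.51 (SE 0.20, adjusted p = 0.063) in cml24-2 and 2.11 (SE 0.18, adjusted p = 2.3e-05) in wild type. PRX10 (AT1G49570) was listed at 3.06 and 2.01 FPKM in cml24-2 with Al and 1.26 and 0.66 FPKM in cml24-2 without Al. In wild type, PRX10 had 3.76 and 4.18 FPKM with Al and 0.65 and 0 FPKM without Al. It was called in wild type and not in cml24-2, with log2 fold changes of 1.37 (SE 0.56, adjusted p = 0.075) in cml24-2 and 3.61 (SE 0.65, adjusted p = 0.0015) in wild type. PRX20 and PRX12 (AT1G71695) rose by less than or about 2-fold, with log2 values of 0.60 in cml24-2 and 1.04 in wild type for PRX20 and 0.54 in cml24-2 and 0.74 in wild type for PRX12. In cml24-2 the PRX20 call ended without cml24-2 no Al replicate 1 or cml24-2 Al replicate 1 (adjusted p from 0.0088 to 0.19), and that of PRX12 without cml24-2 no Al replicate 1 or cml24-2 Al replicate 2 (adjusted p from 0.0046 to 0.073).

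PRX52, PRX49 and PRX62 rose with Al and differed between the genotypes in the log2 size of that rise. The 250 bases upstream of their annotated starts are therefore shown. They are RefSeq sequence of the TAIR10.1 build, read 5′ to 3′ on the strand of the gene. The genes span chr5:1578869-1580875, chr4:17204385-17206033 and chr5:15847065-15849141 in that order, and the windows lie at chr5:1580876-1581125, reverse strand for PRX52, chr4:17206034-17206283, reverse strand for PRX49 and chr5:15849142-15849391, reverse strand for PRX62. Capitals mark the W-box letters TTGACT or TTGACC, the core bound by WRKY factors, on either strand.
PRX52: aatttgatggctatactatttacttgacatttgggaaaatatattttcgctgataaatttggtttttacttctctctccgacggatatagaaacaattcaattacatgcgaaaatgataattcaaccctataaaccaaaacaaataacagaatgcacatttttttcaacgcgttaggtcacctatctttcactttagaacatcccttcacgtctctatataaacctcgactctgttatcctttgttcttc
PRX49: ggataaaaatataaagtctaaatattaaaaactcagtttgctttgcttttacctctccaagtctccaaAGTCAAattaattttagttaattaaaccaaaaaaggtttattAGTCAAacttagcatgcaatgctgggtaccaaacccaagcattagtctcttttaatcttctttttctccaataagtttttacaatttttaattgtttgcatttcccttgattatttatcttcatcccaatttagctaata
PRX62: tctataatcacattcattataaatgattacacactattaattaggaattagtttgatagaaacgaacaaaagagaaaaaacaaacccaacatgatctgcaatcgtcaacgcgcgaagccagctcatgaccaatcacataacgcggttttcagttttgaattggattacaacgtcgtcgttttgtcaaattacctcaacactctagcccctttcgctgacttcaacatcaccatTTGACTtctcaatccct
The window of PRX49 holds TTGACT at 2 places and that of PRX62 at 1, while neither letter run is in that of PRX52. Over the 60 members, 12 windows (20%) hold TTGACT, against 19.1% of 27437 windows of protein-coding genes, and 6 (10%) hold TTGACC, against 12.2%. The shares among the members were thus near those among all genes. The G-box letters CACGTG were in 1 member window (1.67%), against 6.49% of all windows. No 2 motif matches overlapped in the members. A match in these letters is not a site shown to be bound.

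The members grouped here by their role in root hair growth fell together. PRX62 and PRX69, known from hair growth in the cold, are not in that group; PRX62 rose and PRX69 fell with Al in each genotype, as given above. All 6 of the group that passed the filter were lower with Al in each genotype. Of all tested genes, 23.3% were lower in cml24-2 and 25.9% in wild type. Of the 6, PRX8 and PRX60 passed the filter only through libraries without Al, where they were higher, so their direction is not independent of the filter. The median log2 fold change of the 6 was -3.86 in cml24-2 and -3.13 in wild type, beside -0.01 and 0.00 over all genes. The FPKM of the 7 listed summed to 16.1 and 18.1 in cml24-2 with Al, 187 and 253 in cml24-2 without Al, 38.5 and 44.4 in wild type with Al and 379 and 496 in wild type without Al. In whole roots, fewer cells of a type and less RNA per cell cannot be told apart. The 5 root hair markers LRX1, EXPA7, EXPA18, PRP3 and SHV2 were also all lower in each genotype, and their FPKM summed to 19.8 and 19.3 in cml24-2 with Al, 128 and 184 in cml24-2 without Al, 29.9 and 38.0 in wild type with Al and 249 and 356 in wild type without Al. The part of these cells in the fall was not tested.

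PRX44 (AT4G26010), which with PRX73 and PRX1 links extensins in growing hairs, was listed at 6.15 and 7.66 FPKM in cml24-2 with Al and 63.9 and 76.9 FPKM in cml24-2 without Al. In wild type, PRX44 had 9.96 and 11.2 FPKM with Al and 128 and 161 FPKM without Al. The Al libraries were low in each genotype and no groups overlapped, with log2 fold changes of -3.34 (SE 0.18, adjusted p = 2.7e-06) in cml24-2 and -3.73 (SE 0.18, adjusted p = 8.4e-07) in wild type. PRX73 (AT5G67400, RHS19) was listed at 6.23 and 4.17 FPKM in cml24-2 with Al and 58.5 and 88.4 FPKM in cml24-2 without Al. In wild type, PRX73 had 18.6 and 20.3 FPKM with Al and 125 and 182 FPKM without Al. The same order of groups was seen, with log2 fold changes of -3.84 (SE 0.29, adjusted p = 1.7e-05) in cml24-2 and -2.95 (SE 0.26, adjusted p = 2.4e-05) in wild type. PRX7 (AT1G30870) was listed at 2.32 and 3.23 FPKM in cml24-2 with Al and 37.4 and 51.3 FPKM in cml24-2 without Al. In wild type, PRX7 had 4.49 and 3.87 FPKM with Al and 66.6 and 75.6 FPKM without Al. Its log2 fold changes were -4.02 (SE 0.21, adjusted p = 2.3e-06) in cml24-2 and -4.06 (SE 0.20, adjusted p = 1.1e-06) in wild type, with no overlap between Al and no Al. PRX35 (AT3G49960) was listed at 1.20 and 2.77 FPKM in cml24-2 with Al and 24.3 and 33.0 FPKM in cml24-2 without Al. In wild type, PRX35 had 4.47 and 7.68 FPKM with Al and 53.8 and 70.1 FPKM without Al. PRX35 was again low with Al and did not overlap between Al and no Al, with log2 fold changes of -3.87 (SE 0.36, adjusted p = 5.3e-05) in cml24-2 and -3.32 (SE 0.31, adjusted p = 3.4e-05) in wild type. PRX60 (AT5G22410, RHS18) was listed at 0.07 and 0.20 FPKM in cml24-2 with Al and 2.60 and 2.87 FPKM in cml24-2 without Al. In wild type, PRX60 had 0.33 and 0.87 FPKM with Al and 4.27 and 4.68 FPKM without Al. It was low in all Al libraries, with log2 fold changes of -4.31 (SE 0.53, adjusted p = 0.00023) in cml24-2 and -2.85 (SE 0.37, adjusted p = 0.00023) in wild type. PRX8 (AT1G34510) never exceeded 2.79 FPKM, and its counts summed to 1 in cml24-2 with Al and 16 without, a ratio of 0.062 with a 95% counting interval of 0.0015 to 0.40. The PRX8 calls ended in cml24-2 with DESeq2, with RLE size factors, with no low-count filter, with limma at a pseudocount of 1, and without either Al library of either genotype or without cml24-2 no Al replicate 2 (adjusted p from 0.024 to 0.25), and in wild type without wild-type no Al replicate 2 or wild-type Al replicate 2 (adjusted p from 0.0038 to 0.13). PRX1 was listed at 0.08 and 0 FPKM in cml24-2 with Al and 0.08 and 0.08 FPKM in cml24-2 without Al. In wild type, PRX1 had 0.08 and 0.17 FPKM with Al and 0.16 and 0.25 FPKM without Al, which was too low to test. PRX1 and PRX2 have the same coding sequence, and nearly all reads of the pair were listed under PRX2. The split between them is uncertain, so the level of PRX1 itself is not known.

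**Figure D4:**
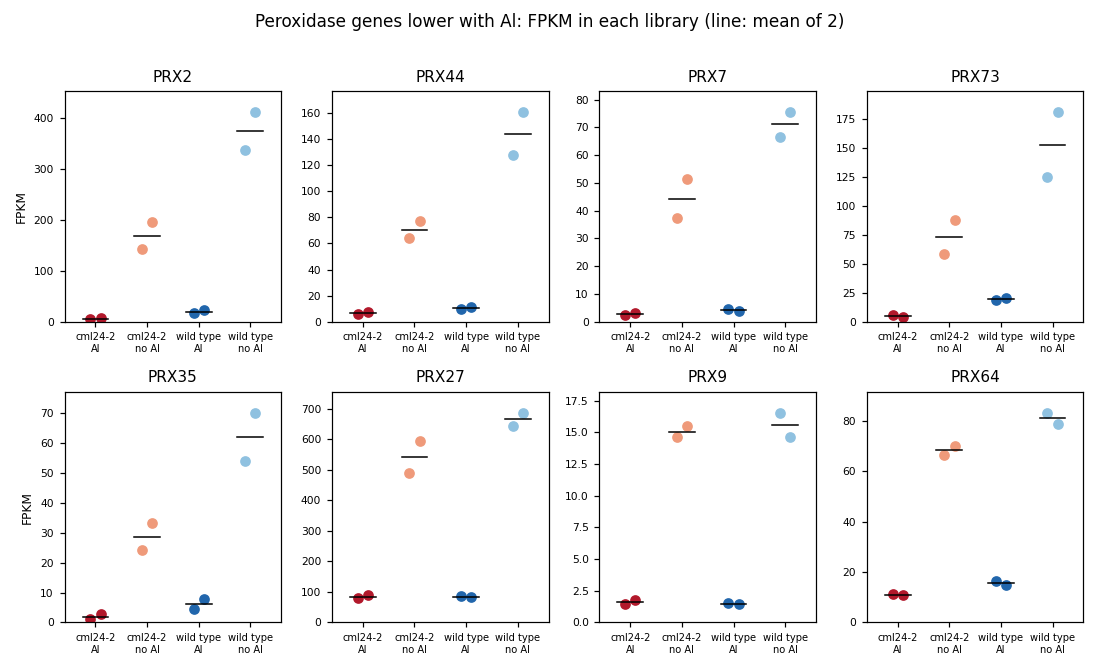
FPKM in each library for 8 peroxidase genes that were lower with Al, in 4 groups of 2 libraries; lines are group means and each vertical axis starts at 0. In every panel both Al groups lie below both no-Al groups. Without Al, cml24-2 lies below wild type without overlap in every panel except PRX9. Of these, PRX27 and PRX64 were not called in that comparison.

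The upstream windows of PRX60 and PRX27 are shown because both members fell with Al and hold the root hair element, a motif known from promoters of root hair genes. They lie at chr5:7426060-7426309, forward strand for PRX60 and chr3:68666-68915, reverse strand for PRX27 in TAIR10.1, and capitals mark the element on either strand.
PRX60: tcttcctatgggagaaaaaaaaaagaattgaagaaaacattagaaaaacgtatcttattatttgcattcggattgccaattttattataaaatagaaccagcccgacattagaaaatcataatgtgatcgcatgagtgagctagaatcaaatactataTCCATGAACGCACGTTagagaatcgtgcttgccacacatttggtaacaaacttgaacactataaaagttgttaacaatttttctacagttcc
PRX27: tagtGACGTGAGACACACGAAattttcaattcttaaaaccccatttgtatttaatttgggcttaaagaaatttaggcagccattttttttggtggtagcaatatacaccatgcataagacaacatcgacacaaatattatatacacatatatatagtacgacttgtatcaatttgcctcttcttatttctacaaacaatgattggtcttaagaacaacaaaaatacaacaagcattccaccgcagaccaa
The element was in 3 of the 60 member windows (5%), those of PRX20, PRX27 and PRX60, against 0.754% of the 27437 windows. PRX20 (AT2G35380) rose with Al, so the 3 windows do not share a direction. Of the 7 root hair members, 1 window (14.3%) held the element.

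The 5 members that polymerise Casparian strip lignin fell in cml24-2, and 4 of them fell in wild type. Their median log2 fold change was -0.56 in cml24-2 and -1.17 in wild type. Of all tested genes, 23.3% were lower in cml24-2 and 25.9% in wild type. PRX64, which is held by the CASP proteins at the strip, was listed at 11.1 and 10.8 FPKM in cml24-2 with Al and 66.4 and 70.1 FPKM in cml24-2 without Al. In wild type, PRX64 had 16.6 and 14.8 FPKM with Al and 83.2 and 78.5 FPKM without Al. The Al libraries were low in each genotype without overlap, and the log2 fold changes were -2.66 (SE 0.10, adjusted p = 4.4e-07) in cml24-2 and -2.34 (SE 0.10, adjusted p = 4.7e-07) in wild type. PRX9 (AT1G44970) was listed at 1.46 and 1.80 FPKM in cml24-2 with Al and 14.6 and 15.5 FPKM in cml24-2 without Al. In wild type, PRX9 had 1.51 and 1.43 FPKM with Al and 16.6 and 14.7 FPKM without Al. The genotypes overlapped within a condition, and Al and no-Al libraries did not, with log2 fold changes of -3.22 (SE 0.16, adjusted p = 1.5e-06) in cml24-2 and -3.37 (SE 0.16, adjusted p = 8.2e-07) in wild type.

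PRX3 (AT1G05260, RCI3) was listed at 122 and 141 FPKM in cml24-2 with Al and 157 and 183 FPKM in cml24-2 without Al. In wild type, PRX3 had 114 and 121 FPKM with Al and 264 and 277 FPKM without Al. Its no-Al libraries were higher in wild type than in cml24-2 and its Al libraries lower, with log2 fold changes of -0.40 (SE 0.12, adjusted p = 0.021) in cml24-2 and -1.17 (SE 0.12, adjusted p = 5.0e-05) in wild type; the call in cml24-2 ended without cml24-2 no Al replicate 2 or cml24-2 Al replicate 1 (adjusted p from 0.0068 to 0.15). PRX72 (AT5G66390), also needed for stem lignin, was listed at 94.5 and 107 FPKM in cml24-2 with Al and 125 and 146 FPKM in cml24-2 without Al. In wild type, PRX72 had 107 and 128 FPKM with Al and 139 and 139 FPKM without Al. Libraries with Al lay below those without in each genotype, with log2 fold changes of -0.45 (SE 0.13, adjusted p = 0.018) in cml24-2 and -0.21 (SE 0.13, adjusted p = 0.19) in wild type, and the call in cml24-2 ended without the same pair of libraries, each left out in turn (adjusted p from 0.0063 to 0.13). PRX39 (AT4G11290) was listed at 23.2 and 21.8 FPKM in cml24-2 with Al and 32.0 and 33.0 FPKM in cml24-2 without Al. In wild type, PRX39 had 25.0 and 30.9 FPKM with Al and 35.9 and 43.4 FPKM without Al. Al and no-Al libraries of PRX39 did not overlap in either genotype, with log2 fold changes of -0.56 (SE 0.14, adjusted p = 0.012) in cml24-2 and -0.47 (SE 0.14, adjusted p = 0.019) in wild type, and the calls ended without cml24-2 no Al replicate 2 or cml24-2 Al replicate 2 (adjusted p from 0.0026 to 0.075) and without wild-type no Al replicate 2 or wild-type Al replicate 1 (adjusted p from 0.0030 to 0.16). Of 7 endodermal markers, 6 were lower in each genotype, the exception being GSO1, and their FPKM summed to 51.7 and 56.6 in cml24-2 with Al, 326 and 337 in cml24-2 without Al, 87.3 and 82.4 in wild type with Al and 433 and 383 in wild type without Al. CASP4 was at 0 in cml24-2 Al replicate 2. The part of this cell type in these values was not tested.

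Large falls were also found in members without an assigned role. PRX27 (AT3G01190), the member with the third highest mean level, 344 FPKM, was listed at 78.7 and 90.2 FPKM in cml24-2 with Al and 489 and 594 FPKM in cml24-2 without Al. In wild type, PRX27 had 88.1 and 81.9 FPKM with Al and 645 and 688 FPKM without Al. The Al libraries of the genotypes overlapped at the low end, and the log2 fold changes were -2.70 (SE 0.13, adjusted p = 1.5e-06) in cml24-2 and -2.94 (SE 0.13, adjusted p = 7.0e-07) in wild type. PRX45 (AT4G30170) had log2 fold changes of -2.44 (SE 0.12, adjusted p = 1.5e-06) in cml24-2 and -2.01 (SE 0.12, adjusted p = 2.4e-06) in wild type, with levels between 52.3 and 91.2 FPKM with Al and between 302 and 370 FPKM without. PRX56 (AT5G15180) was listed at 7.20 and 7.73 FPKM in cml24-2 with Al and 31.4 and 38.9 FPKM in cml24-2 without Al. In wild type, PRX56 had 20.6 and 13.5 FPKM with Al and 71.1 and 66.4 FPKM without Al. It was lowest in cml24-2 with Al and no groups overlapped, with log2 fold changes of -2.26 (SE 0.19, adjusted p = 3.0e-05) in cml24-2 and -1.98 (SE 0.18, adjusted p = 2.5e-05) in wild type. PRX24 (AT2G39040) was listed at 0.06 and 0.06 FPKM in cml24-2 with Al and 1.29 and 0.80 FPKM in cml24-2 without Al. In wild type, PRX24 had 0.19 and 0.51 FPKM with Al and 7.71 and 5.23 FPKM without Al. It was high in wild type without Al and low elsewhere, without overlap. PRX24 counts summed to 2 in cml24-2 with Al and 34 without, a ratio of 0.059 with a 95% counting interval of 0.0068 to 0.23, and its log2 fold change in wild type was -4.16 (SE 0.41, adjusted p = 4.4e-05). PRX16 (AT2G18980) was listed at 34.4 and 42.6 FPKM in cml24-2 with Al and 85.4 and 92.7 FPKM in cml24-2 without Al. In wild type, PRX16 had 17.6 and 21.9 FPKM with Al and 144 and 140.4 FPKM without Al. The groups did not overlap, and its log2 fold changes were -1.23 (SE 0.13, adjusted p = 0.00012) in cml24-2 and -2.81 (SE 0.14, adjusted p = 1.2e-06) in wild type.

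Smaller falls in each genotype were found for PRX21 (AT2G37130), with log2 values of -1.76 in cml24-2 and -1.48 in wild type, for PRX19 (AT2G34060), with -1.23 in cml24-2 and -0.77 in wild type, and for PRX63, with -0.62 in cml24-2 and -1.17 in wild type. The PRX19 call in wild type ended with DESeq2 or without wild-type Al replicate 2 (adjusted p from 0.0056 to 0.061), and the PRX63 call in cml24-2 without cml24-2 no Al replicate 1 or cml24-2 Al replicate 2 (adjusted p from 0.0020 to 0.077). PRX51 (AT4G37530), PRX22 (AT2G38380) and PRX30 were called lower in wild type, with log2 values of -0.58, -0.43 and -0.26, and not called in cml24-2. These 3 calls were lost when wild-type Al replicate 1 was left out, and those of PRX22 and PRX30 (AT3G21770) also without most other single libraries and that of PRX30 with DESeq2, with adjusted p from 0.00043 to 0.061 for PRX51, 0.0085 to 0.18 for PRX22 and 0.018 to 0.18 for PRX30. PRX4, PRX17 (AT2G22420), PRX23 (AT2G38390), PRX31, PRX50 (AT4G37520), PRX55 and PRX70 (AT5G64110) were called in neither genotype, which does not show that they did not respond.

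Neighbouring members did not always move together. PRX53 and PRX54 share 80.4% of their coding bases and rose together, whereas PRX4 was not called and PRX5 fell. PRX58 and PRX59, with 56.4% identity, both rose in wild type. Of the cluster of PRX69, PRX70 and PRX71, which share 60.2 to 68.4% of their coding bases, PRX69 was called lower in each genotype, PRX71 in cml24-2 and PRX70 in neither. PRX1 and PRX2 have the same coding sequence with 0 base differences, lie within 10 kb of each other and shared fractional counts in 7 libraries; summed, their log2 fold change was -4.85 in cml24-2 and -4.17 in wild type, so the fall holds for the pair and its split is uncertain. PRX22 and PRX23 (90.6% identity) summed gave -0.06 (adjusted p = 0.63) in cml24-2 and -0.38 (adjusted p = 0.010) in wild type. PRX50 and PRX51 (92.4% identity) summed gave -0.07 (adjusted p = 0.55) in cml24-2 and -0.40 (adjusted p = 0.0046) in wild type.

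Without Al, cml24-2 already differed from wild type in many members. In cml24-2, 11 of the 54 tested were higher, where 7.41% of all tested genes were higher, and 11 were lower, where 5.50% of all genes were lower; each count is 20.4% of the members. By at least 2-fold, 8 were higher, against 3.05% of all genes, and 4 were lower, against 1.66% of all genes. The higher ones included 5 of the 8 vascular and stem lignin members, namely PRX52, PRX49, PRX47, PRX71 and PRX25. PRX52 stood highest, with a log2 difference of 3.31 (SE 0.29, adjusted p = 0.00045), followed by PRX15 with 3.01 (SE 0.30, adjusted p = 0.00087), PRX49 with 2.93 (SE 0.15, adjusted p = 1.7e-05), PRX53 with 2.19 (SE 0.24, adjusted p = 0.0011), PRX62 with 1.85 (SE 0.14, adjusted p = 0.00025), PRX47 with 1.50 (SE 0.12, adjusted p = 0.00032), PRX71 with 1.45 (SE 0.20, adjusted p = 0.0029) and PRX25 with 1.39 (SE 0.17, adjusted p = 0.0018). These 8 were also called under every alternative tried. Their libraries, given above, did not overlap between the genotypes, which is not separate evidence, as the calls rest on the same libraries. This comparison shares the wild-type libraries without Al with the Al comparison in wild type. PRX54, PRX37 and PRX31 were higher by less than 2-fold, with log2 differences of 0.87, 0.68 and 0.65. The call of PRX54 ended without cml24-2 no Al replicate 1 (adjusted p from 0.0079 to 0.065), that of PRX37 without cml24-2 no Al replicate 2 (adjusted p from 0.00088 to 0.059) and that of PRX31 without any 1 library other than wild-type no Al replicate 2 (adjusted p from 0.0017 to 0.18). The sums of the shoot markers, given above, were also higher in cml24-2. Without Al, 0 of the 12 were called, and with Al 2 were called higher, against 4.63% of all genes. All 12 log2 differences were above 0 in each condition, with medians of 0.99 without Al and 1.94 with Al.

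The lower members in cml24-2 without Al included 4 of the 6 tested root hair members, where 5.50% of all tested genes were lower. PRX44 had a log2 difference of -0.99 (SE 0.15, adjusted p = 0.0052), PRX35 of -1.07 (SE 0.27, adjusted p = 0.033), PRX73 of -1.02 (SE 0.24, adjusted p = 0.025) and PRX7 of -0.64 (SE 0.16, adjusted p = 0.035). PRX24, with -2.57 (SE 0.33, adjusted p = 0.0025), was the furthest below wild type of all tested members called lower. PRX2, with -1.11 (SE 0.21, adjusted p = 0.011), and PRX56, with -0.92 (SE 0.17, adjusted p = 0.0096), were lower too. PRX55, PRX51, PRX16 and PRX3 were lower, with log2 differences of -0.85, -0.74, -0.63 and -0.63, and the PRX51 call ended when its counts were summed with those of PRX50 (adjusted p = 0.11). Among the root hair markers, 3 of 5 were lower too, against the same 5.50% of all genes, with the sums given above. The PRX35 call also ended with DESeq2. PRX44 and PRX24 were the 2 lower members called under every alternative. Each of the other 9 lost its call without cml24-2 no Al replicate 1, so that 2 were called lower without that library, and adjusted p reached up to 0.19 over the alternatives.

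**Figure D5:**
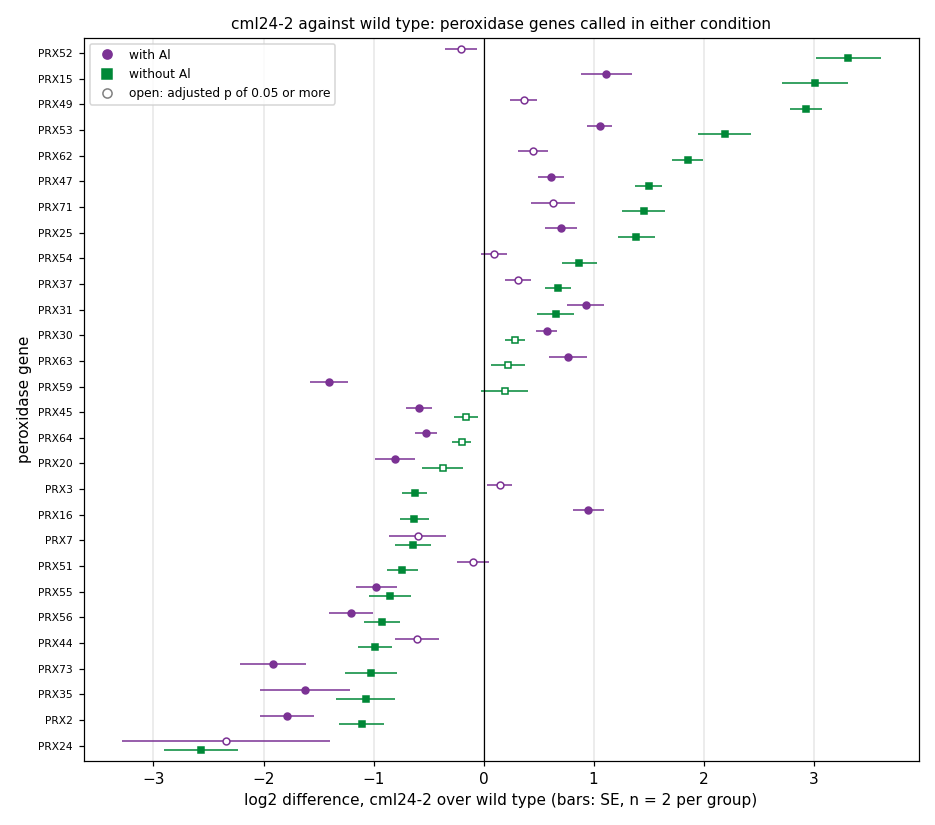
Log2 differences of cml24-2 over wild type for the 28 peroxidase genes called in either condition, with Al (circles) and without Al (squares); bars are SE (n = 2 libraries per group) and open symbols did not pass an adjusted p of 0.05. PRX52, PRX49 and PRX62 are apart from 0 without Al and called there alone, while PRX2, PRX73, PRX35 and PRX56 are below 0 in both conditions.

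With Al, cml24-2 exceeded wild type in 8 members, where 4.63% of all tested genes were higher, and was below it in 9, where 3.39% of all genes were lower. These are 14.8 and 16.7% of the tested members. By at least 2-fold, 2 were higher, against 2.48% of all genes, and 5 were lower, against 1.24% of all genes. PRX53 was higher, with a log2 difference of 1.06 (SE 0.11, adjusted p = 0.0024) and PRX59 was lower, with a log2 difference of -1.41 (SE 0.17, adjusted p = 0.0040), and these 2 were called under every alternative. PRX15, PRX16, PRX31, PRX63, PRX25, PRX47 and PRX30 were the other higher members, with log2 differences between 0.58 and 1.12. PRX31 (AT3G28200) was listed at 38.0 and 39.8 FPKM in cml24-2 with Al and 32.6 and 39.4 FPKM in cml24-2 without Al. In wild type, PRX31 had 20.1 and 20.5 FPKM with Al and 19.4 and 27.6 FPKM without Al. Its cml24-2 libraries were above those of wild type in each condition, with a log2 difference with Al of 0.93 (SE 0.17, adjusted p = 0.015). PRX63 (AT5G40150) was listed at 9.74 and 8.62 FPKM in cml24-2 with Al and 14.2 and 13.7 FPKM in cml24-2 without Al. In wild type, PRX63 had 5.68 and 5.03 FPKM with Al and 10.7 and 13.9 FPKM without Al. The genotypes overlapped without Al and not with Al, with a log2 difference with Al of 0.76 (SE 0.17, adjusted p = 0.030).

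Beside PRX59, the lower members with Al included PRX73, with a log2 difference of -1.91 (SE 0.30, adjusted p = 0.0082), PRX2, with -1.79 (SE 0.24, adjusted p = 0.0057), PRX35, with -1.62 (SE 0.41, adjusted p = 0.045), and PRX56, with -1.20 (SE 0.20, adjusted p = 0.0099). PRX55 (AT5G14130) was listed at 15.5 and 11.3 FPKM in cml24-2 with Al and 10.1 and 10.5 FPKM in cml24-2 without Al. In wild type, PRX55 had 28.0 and 24.4 FPKM with Al and 22.6 and 15.7 FPKM without Al. The wild-type libraries were higher in each condition, with a log2 difference with Al of -0.98 (SE 0.19, adjusted p = 0.018). PRX20, PRX45 and PRX64 were lower, with log2 differences of -0.81, -0.59 and -0.52. The endodermal markers included 4 of 7 that were lower too, against 3.39% of all genes. The alternatives were read for the peroxidase members only, so how far these marker calls hold was not tested. PRX15 and PRX63 were not called by DESeq2 with Al, nor PRX35 and PRX15 by limma. Of the 17 calls in this comparison, 15 ended without at least 1 of the libraries compared: without wild-type Al replicate 1 or 2 or cml24-2 Al replicate 1 or 2, the higher calls numbered 1, 2, 2 and 1 and the lower calls 2, 2, 3 and 3, in that order of libraries. PRX52, with -0.21 (SE 0.15, adjusted p = 0.43), PRX49, with 0.37 (SE 0.12, adjusted p = 0.11), and PRX62, with 0.45 (SE 0.13, adjusted p = 0.074), did not pass with Al. PRX44, with -0.61 (SE 0.20, adjusted p = 0.095), did not pass either.

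The test of the difference between the genotypes in the Al response found 4 members. In this interaction, 1 of the 54 tested was higher, where 0.0987% of all tested genes were higher, and 3 were lower, where 0.202% of all genes were lower. PRX52 had an interaction of -3.52 (SE 0.33, adjusted p = 0.0043), so its log2 rise was smaller in cml24-2 by that amount. Its counts in wild type without Al summed to only 20. PRX49 had an interaction of -2.56 (SE 0.19, adjusted p = 0.0013) and PRX62 one of -1.40 (SE 0.19, adjusted p = 0.024). In these 3 members the levels with Al did not pass the test between the genotypes, while cml24-2 was called higher without Al. PRX16 had an interaction of 1.58 (SE 0.19, adjusted p = 0.014), with log2 differences of cml24-2 from wild type of 0.95 with Al and -0.63 without Al. The interaction did not pass for PRX59, with -1.60 (SE 0.27, adjusted p = 0.055), PRX47, with -0.89 (SE 0.17, adjusted p = 0.081), PRX15, with -1.89 (SE 0.38, adjusted p = 0.089), or PRX53, with -1.13 (SE 0.27, adjusted p = 0.14).

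PRX49 kept its call under every alternative, and PRX52 under all except limma on log2(FPKM + 0.1) (adjusted p from 1.7e-14 to 0.060 over the alternatives). The PRX16 call ended without wild-type Al replicate 1, either cml24-2 no Al library or cml24-2 Al replicate 2 (adjusted p from 1.0e-08 to 0.088), and the PRX62 call without any 1 library other than the wild-type no Al ones (adjusted p from 4.3e-07 to 0.15).

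Other genes of the pathway were read from lists by gene family, also drawn up with earlier results of these data known. Their counts stand beside shares over all tested genes of 21.3% higher and 23.3% lower with Al in cml24-2, and 25.1% higher and 25.9% lower in wild type. Of 10 NADPH oxidases of the RBOH family, 8 were tested, and 1 was higher and 3 were lower with Al in each genotype. RHD2, the oxidase of growing root hairs, had log2 fold changes of -1.42 (SE 0.16, adjusted p = 0.00014) in cml24-2 and -2.28 (SE 0.16, adjusted p = 7.8e-06) in wild type, and RBOHB had -1.10 (SE 0.18, adjusted p = 0.0011) in cml24-2 and -1.78 (SE 0.18, adjusted p = 5.3e-05) in wild type. RBOHD, the oxidase of the defence burst, was higher in cml24-2 than in wild type, with log2 differences of 1.04 (SE 0.26, adjusted p = 0.041) with Al and 1.16 (SE 0.26, adjusted p = 0.021) without Al. Of 13 superoxide dismutases, catalases and ascorbate peroxidases, 12 were tested, and 4 were higher and 3 lower with Al in cml24-2, and 3 were higher and 4 lower in wild type. CAT1 had log2 values of 1.28 in cml24-2 and 1.89 in wild type, and FSD1 had -1.39 in cml24-2 and -1.51 in wild type. Of 17 laccases, which also oxidise monolignols, 16 were tested, and 6 were higher and 3 lower in cml24-2, and 8 were higher and 3 lower in wild type, with LAC12 at 2.84 in cml24-2 and 3.79 in wild type and LAC8 at -0.90 in cml24-2 and -1.54 in wild type. The share of higher laccases was above that of all genes in each genotype, and the share of lower laccases was near it or below. These are counts with no test of the list.

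Among 6 regulators known to act on peroxidase or root hair genes, RSL4, a factor that promotes hair growth, had log2 fold changes of -2.37 (SE 0.44, adjusted p = 0.0022) in cml24-2 and -1.91 (SE 0.40, adjusted p = 0.0035) in wild type, and RHD6, which acts upstream of it, had -1.20 (SE 0.16, adjusted p = 0.00036) in cml24-2 and -1.35 (SE 0.15, adjusted p = 8.9e-05) in wild type. MYB36, which switches on Casparian strip genes, was called higher in wild type, with 0.66 (SE 0.13, adjusted p = 0.0022), and had 0.04 (SE 0.13, adjusted p = 0.83) in cml24-2. MYB30 was higher in cml24-2 than in wild type, by log2 values of 1.56 (SE 0.30, adjusted p = 0.018) with Al and 1.30 (SE 0.29, adjusted p = 0.022) without Al. Of the 13 family loci outside the 60, 6 were tested, and 1 was higher and 4 were lower with Al in each genotype. AT5G24070 had log2 fold changes of -4.45 in cml24-2 and -4.65 in wild type, and AT4G08780 had 0.75 in cml24-2 and 1.12 in wild type.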

How the data were processed

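Root RNA of 4 groups with 2 libraries each was sequenced on the BGISEQ-500 platform, per the labels. The authors deposited, per the file headers, an expected count, a length and an FPKM for each gene and library. Expected counts are RSEM's estimated reads per gene, not scaled, per the submitters' processing notes, and reads shared by similar genes are split. The authors' deposited FPKM are scaled by length and library total. Not given in the sources used here are the aligner, the version of RSEM and the build. A gene not listed in a file was taken as 0.

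Expected counts were rounded and tested with edgeR 4.0.16 in R 4.3.3: TMM factors of 0.984 to 1.03, filterByExpr by group, group means over all 8 libraries (4 residual degrees of freedom), quasi-likelihood F tests and Benjamini-Hochberg adjustment over 20262 genes. SE were taken from the log2 fold change and F. The common biological coefficient of variation was 11.0%. In a single library, 3 counts are 0.238 to 0.260 CPM; intervals and floors cover counting error only. Replicates differed beyond counting noise in every group (chi-square per gene 3.97 to 17.0), so none was merged.

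Family numbers follow locus order; RefSeq also lists other numbers for some loci, such as AtPRX1 for PRX2 and peroxidase 2 for PRX53. Names, positions and upstream sequence came from RefSeq TAIR10.1 by locus identifier; protein sequences were not used here.

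Alternatives were DESeq2 1.42.0, a filter of 1 CPM in 4 libraries, no low-count filter, RLE size factors, the 4 compared libraries alone, the replicate number as a block, limma 3.58.1 on log2(FPKM + 1) with an FPKM of 1 as filter or none and on log2(FPKM + 0.1), near-identical pairs summed, and each library left out. The named-genes rule allowed any of the 60, with values in every library for the largest changes past the threshold in each comparison (mean of at least 2 FPKM in the higher group), the 5 most abundant members and members of known root function. The members, lists and tests were chosen with earlier results of these data known. The tests were checked on simulated counts.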

Additional observations from a re-analysis of the deposited data

Results flagged for a closer look

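The Al response of 4 peroxidase genes, taken as a log2 ratio, differed between cml24-2 and wild type by the interaction term of edgeR's quasi-likelihood test. PRX52 had an interaction of -3.52 on the log2 scale, with fold changes of 3.56 in cml24-2 and 7.08 in wild type. PRX49 had -2.56, with 3.74 in cml24-2 and 6.30 in wild type, and PRX62 had -1.40, with 1.39 in cml24-2 and 2.80 in wild type. With Al, the mean FPKM of PRX52 went from 6.18 to 74.2 in cml24-2 and from 0.635 to 85.0 in wild type. That of PRX49 went from 47.0 to 640 in cml24-2 and from 6.36 to 493 in wild type. For PRX62 it went from 85.1 to 227 in cml24-2 and from 24.3 to 165 in wild type. PRX16 had 1.58, with -1.23 in cml24-2 and -2.81 in wild type. In PRX52, PRX49 and PRX62 both libraries of cml24-2 without Al exceeded both of wild type without Al, and in PRX16 they were below them. The 4 members were picked by the test on these same libraries, so this separation of libraries is not separate evidence.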

How the results depend on the processing

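The counts of peroxidases called with Al stayed within 1.5 times of those reported under every alternative: over single libraries left out, 11 to 17 were higher and 20 to 26 lower in cml24-2, and 17 to 18 higher and 22 to 28 lower in wild type. Of the 41 members called with Al in cml24-2 and the 44 in wild type, 29 and 36 were called under every alternative. The genotype comparisons were less stable. Higher in cml24-2 without Al numbered 9 to 14 over libraries left out. Lower in cml24-2 without Al numbered 11, against 6 in the 4 compared libraries alone, 7 with limma without a filter, and 2 to 13 over libraries left out. Higher in cml24-2 with Al numbered 8, against 13 in the 4 libraries alone, 5 with limma without a filter and 1 to 10 over libraries left out, and lower with Al numbered 9, against 5 with limma without a filter and 2 to 11 over libraries left out. Higher in the interaction numbered 1, against 2 with DESeq2, 0 with limma without a filter and 0 to 3 over libraries left out, and lower in the interaction numbered 3, against 5 with DESeq2 and 2 to 7 over libraries left out. With fewer libraries the tests have fewer degrees of freedom; otherwise the cause was not tested.

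Signs were compared for the called values and for a chosen part of the uncalled ones, and not for the rest. Among these, signs turned in 5 instances, all for members that were not called. PRX4 in wild type had -0.43 without wild-type no Al replicate 1 and -0.15 without wild-type Al replicate 2. It ran up to 0.68 over libraries left out. PRX71 in wild type had 0.14 without wild-type no Al replicate 2, 0.11 without wild-type Al replicate 2, and down to -0.30. PRX57 in cml24-2 had 0.10 without cml24-2 no Al replicate 2, and down to -0.34. The replicate numbers did not pair the libraries: correlations of same-numbered deviations from the group means ran from -0.207 to 0.205. With the replicate number as a block, 15 members were higher and 26 lower with Al in cml24-2, 18 and 27 in wild type, 11 and 12 in cml24-2 against wild type without Al, 9 and 9 with Al, and 1 and 3 in the interaction; the PRX20 difference with Al was not called in it. Members under about 1 FPKM rest on few counts.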
